A study of Papio anubis with 3 samples.

Results

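Trimethylated lysine 20 of histone H4 (H4K20me3) was mapped in neural progenitors that had been captured from subventricular zone tissue of 1 adult baboon (Papio anubis). The regions described here are the clusters of H4K20me3 peaks of intermediate size on the autosomes other than chromosome 19. Clusters were selected on peak position alone: peaks separated by gaps of at most 50 kb were joined on each chromosome, and clusters holding at least 10 and fewer than 300 peaks were kept. They are called mid-size clusters below. They held 1905 of the 10000 H4K20me3 peaks in the deposited list (19.05%, exact 95% interval 18.3 to 19.8), in 62 clusters. These are 26.9% of the 7088 peaks on the 19 autosomes to which the rule applies. Because the clusters were chosen by the positions of their own peaks, the number of peaks, the length and the density of the clusters are descriptions and were given no test.

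The study profiled H4K20me3 and H3K27me3 by chromatin immunoprecipitation and sequencing (ChIP-seq), with 1 library per mark, and libraries for total H3 and total H4 served for normalization. Of the total histone libraries, only total H4 is among the samples of this series. Which control each peak list was called against is not stated in the sources used here. Per the labels' protocols, cells dissociated from fresh subventricular zone tissue were captured on beads carrying an antibody to a marker of the lineage (Doublecortin, PSA-NCAM, GFAP, Vimentin and Nestin are the examples given), then fixed in formaldehyde and sheared. The labels give 1 group per mark and name no genotype, treatment or agent, and no age beyond adult. Which marker antibody gave each library is not stated in the labels, and peak lists carry no expression values against which the cell type could be checked. No value has a replicate error, and no p-value is given.

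H4K20me3 is written by the methyltransferases KMT5B and KMT5C, largely on chromatin that already carries H3K9me3 and HP1, and it is known from constitutive heterochromatin, such as satellite repeats near centromeres and telomeres, from retroelements and from arrays of zinc finger genes. H3K27me3 is written by Polycomb repressive complex 2 and is the mark of facultative heterochromatin over developmental genes. The 2 marks have separate writers. Regions listed for both are given below with the control coverage they were called against. No genome or annotation of the papAnu2 build was used here, so clusters are given by position and no gene or sequence is assigned to them.

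The mid-size clusters were small, mostly loose aggregates of peaks and lay on 18 of the 19 autosomes. Together they spanned 9.66 Mb, or 0.392% of the autosomal span of 2466 Mb, where the span of a chromosome runs to the last peak end in either list. Their median length was 137.8 kb (95% interval 92.6 to 172, n = 62 clusters), with quartiles of 69.3 and 219 kb and a range of 16.1 to 525 kb. The median cluster held 18 peaks (14 to 24). Peaks covered 726 kb, which is 7.52% of the summed cluster length. Most clusters lay in the lower part of the size range: 33 held 10 to 19 peaks, 19 held 20 to 49, 6 held 50 to 99 and 4 held at least 100. The 4 largest nevertheless contributed 522 of the 1905 peaks (27.4%). The length follows the joining distance: with gaps of at most 25 kb its median was 67.2 kb and with 100 kb it was 212 kb.

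The upper limit of the rule lay in an empty part of the size distribution, and the lower limit cut through a continuous one. The largest mid-size cluster held 143 peaks, and the next larger cluster on these autosomes held 312, so any upper limit between these numbers gives the same clusters. At the lower limit, 8 clusters of 8 peaks and 8 of 9 peaks fell just outside, and 2 of 10 and 5 of 11 fell just inside. Clusters of 9 peaks were 26.3 to 158.9 kb long with a median fold of 3.67, and the 2 clusters of 10 peaks were 158 and 221 kb long with a median fold of 3.54. Fold is the authors' enrichment of ChIP over control, at the summit for H4K20me3 and as a mean over the peak for H3K27me3. In fold the clusters on either side of the lower limit lay close together.

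**Figure D1:**
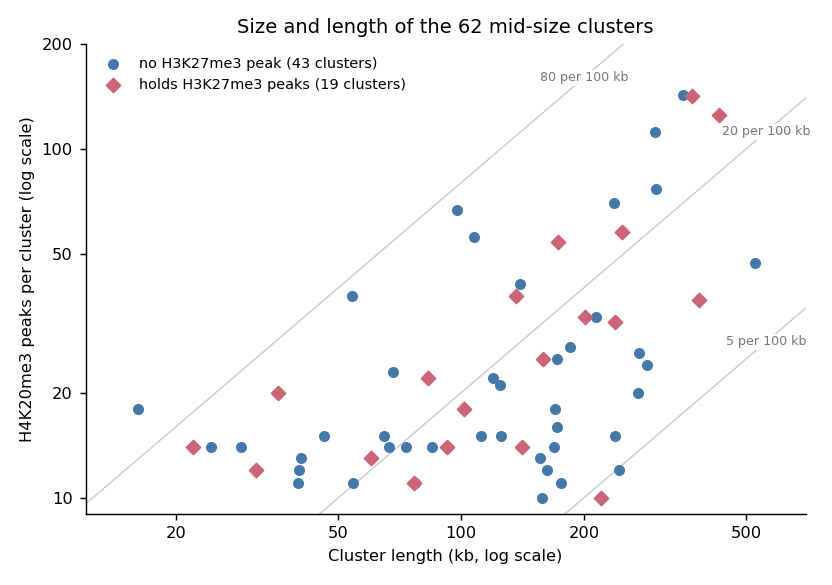
Number of H4K20me3 peaks in each of the 62 mid-size clusters against cluster length, both on log scales, with grey lines of equal density. Lengths run from 16.1 to 525 kb, and the 19 clusters that hold H3K27me3 peaks (diamonds) lie across most of the range of sizes and lengths.

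Density also varied widely. The median was 18.0 peaks per 100 kb (95% interval 14.6 to 26.5), and clusters ranged from 4.53 to 111.8 per 100 kb, with quartiles of 10.9 and 30.9. With peaks joined at 25 kb the median was 31.4. Longer clusters tended to be looser: over the 62 clusters Spearman's rho was -0.50 between length and density, which share the length, and 0.53 between number of peaks and length. The densest cluster lay on chromosome 2 (148370910 to 148387010), where 18 peaks stood within 16.1 kb and covered 46.5% of it. Next came a cluster of 38 peaks in 54.0 kb on chromosome 5 (12831688 to 12885698), at 70.4 per 100 kb, and one of 67 peaks in 97.8 kb on chromosome 1 (136718979 to 136816799), at 68.5 per 100 kb. A cluster on chromosome 7 (11331511 to 11353532) had 63.6 per 100 kb and one on chromosome 4 (78848986 to 78873371) had 57.4, each with 14 peaks. At the other end, the longest cluster of all, on chromosome 6 (43302659 to 43827651), spread 47 peaks over 525 kb at 8.95 per 100 kb, and its densest 50 kb held 19.1% of them. Another long and loose cluster, on chromosome 1 (133201421 to 133585190), had 37 peaks in 384 kb.

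Inside the clusters, neighbouring summits usually stood 1 to a few kb apart. Over the 1843 spacings between neighbouring summits the median was 1816 bp (quartiles 890 and 5488.5 bp), and 53.0% were at most 2 kb. The same median was 1098 bp in the 5 clusters of at least 312 peaks on these autosomes, called giant here, and 11011 bp in the 457 clusters of 2 to 9 peaks, called small. Joining at 50 kb fixes part of this order, since only closely spaced peaks build a large cluster. By cluster, the median spacing was at most 2 kb in 29 of the 62 and at most 3 kb in 40, while in 6 it exceeded 10 kb. The tightest was the cluster on chromosome 2 just named, at 730 bp, and the loosest was one of 10 peaks on chromosome 8 (37799208 to 38020099), at 21571 bp.

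The 10 clusters with most peaks lay on 10 different chromosomes. The largest, with 143 peaks over 351 kb of chromosome 6 (134580365 to 134930913), had a median fold of 3.76 and a highest fold of 6.06. The cluster of 142 peaks on chromosome 13 (85385236 to 85754405) was similar in length at 369 kb, with a median fold of 4.19 and a highest of 6.82. On chromosome 14, 125 peaks lay between 58871293 and 59300496 with a median fold of 3.998. That cluster was among the 3 longest, at 429 kb. On chromosome 15, 112 peaks lay between 12046524 and 12345073, again with a median fold of 3.998. These 4 clusters had 29.1 to 40.8 peaks per 100 kb, above the upper quartile of density or just under it. Chromosome 11 followed with 77 peaks (chr11:131966777-132267195) and chromosome 4 with 70 (chr4:117282992-117519669). The dense cluster of chromosome 1 ranked next with 67. The last 3 of the 10 held 58 peaks (chr9:373191-621687), 56 peaks (chr3:52807635-52915123) and 54 peaks (chr7:56859241-57032158). Among these 6 the median fold ran from 2.20 on chromosome 9 and 2.97 on chromosome 4 to 4.18 on chromosome 1.

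**Figure D2:**
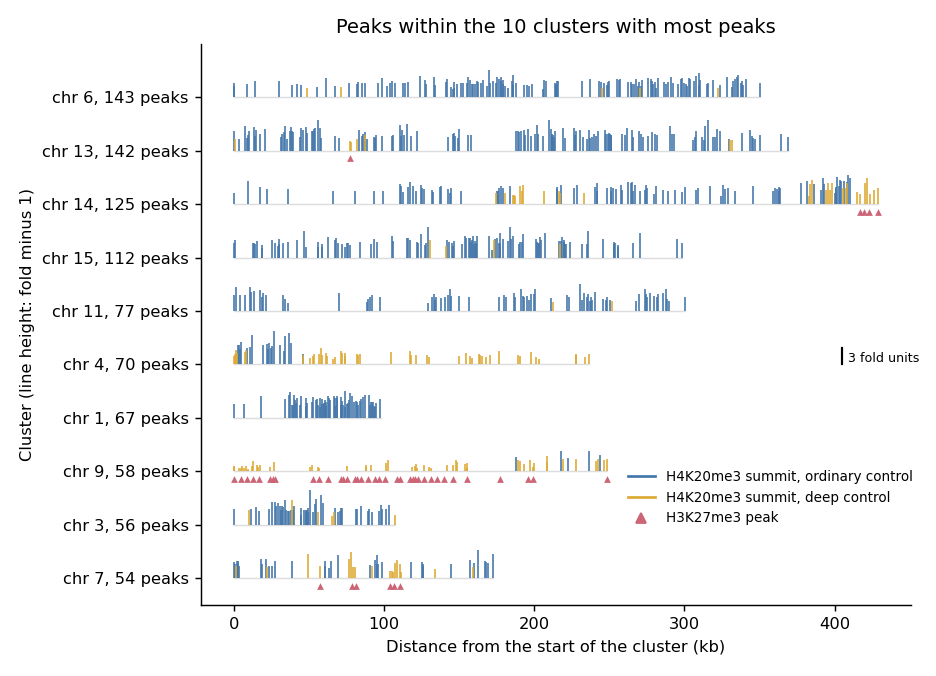
Summits of the H4K20me3 peaks in the 10 mid-size clusters with most peaks, by distance in kb from the start of the cluster; the height of each line is the fold minus 1 on a common scale, gold marks peaks deep in control (control pileup above 7.00), and triangles mark H3K27me3 peaks. The cluster on chromosome 4 changes from tall to short lines after about 40 kb, and the triangles on chromosome 14 crowd at its far end.

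Several clusters were not uniform along their length. On chromosome 4, the first 40 kb held 26 peaks, whose fold was 4.31 and control pileup 4.32 at the median. The 44 peaks of the remaining stretch had medians of 2.78 and 10.4. The control pileup is the value the caller set against a peak, solved here from its fold and p. A peak is called deep in control where this value exceeds 7.00, which is 2 times the lowest in the list, and ordinary otherwise. On chromosome 9 the order was the reverse, with 39 peaks of median fold 2.04 and control pileup 64.2 in the first 160 kb and 19 peaks of median fold 3.22 and control pileup 9.17 beyond. On chromosome 14 the last stretch, from 380 kb onward, held 33 of the 125 peaks, 17 of the cluster's 29 deep peaks and its highest fold, 6.41. Median fold was 4.78 and median control pileup 7.56 in that stretch, against 3.91 and 3.99 before it, so both were higher there. These dividing points were chosen after the layout was seen. Over all members, peaks in the outer 20% at either end of a cluster had a median fold of 3.70 (816 peaks) and those in the inner 60% had 3.72 (1089 peaks), so folds showed no general decline towards the cluster edges.

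The strongest and the widest members were spread over several clusters. The highest fold was 7.55, at a peak of 2120 bp on chromosome 3 (52857901 to 52860020) within the cluster of 56 peaks. It was followed by 7.28 on chromosome 4 (117309408 to 117310246), inside the first 40 kb of the cluster of 70, and by 7.17 on chromosome 6 (47527522 to 47529046). The widest member measured 2748 bp on chromosome 7 (56914930 to 56917677), with a fold of 3.32 and a control pileup of 26.7. The next were 2605 bp on chromosome 14 (59268429 to 59271033) and 2542 bp on chromosome 15 (21665992 to 21668533). Members of at least 1 kb numbered 56, or 2.94% of the 1905.

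Mid-size clusters were found on 18 of the 19 autosomes, and chromosome 12 had none although it held 78 H4K20me3 peaks. Chromosomes 1 and 6 had 7 clusters each and chromosome 13 had 6. Relative to span, chromosome 13 came first with 4.70 clusters per 100 Mb, followed by chromosome 17 with 4.40, chromosome 14 with 4.22 and chromosome 6 with 4.02. These values rest on 4 to 7 clusters each, so their order is loose. By member peaks, chromosome 6 held 268 (14.1% of members against 7.05% of the span), chromosome 13 held 214 (11.2% against 5.17%), chromosome 1 held 194 and chromosome 14 held 184. The share of a chromosome's own peaks that lay in mid-size clusters ranged widely where such clusters were present, from 3.16% on chromosome 20 and 4.42% on chromosome 8 to 68.3% on chromosome 15. Chromosomes 20 and 8 each carry a giant cluster that takes most of their peaks.

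**Figure D3:**
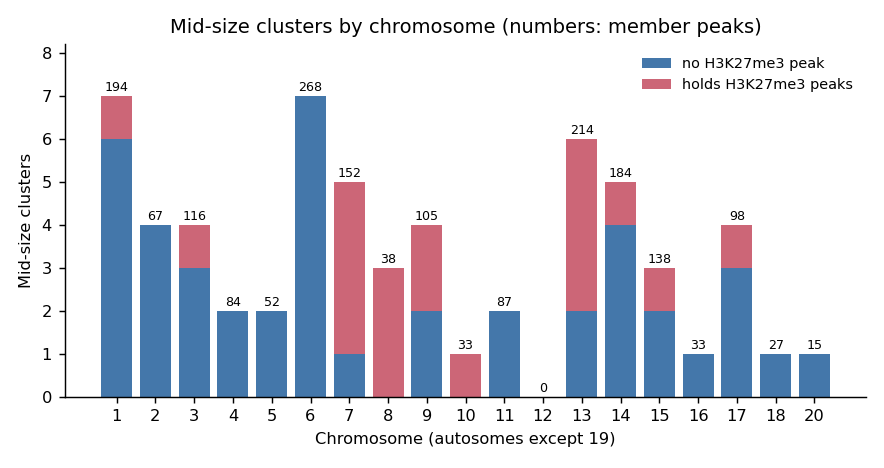
Number of mid-size clusters on each autosome except 19, divided into clusters with (red) and without (blue) H3K27me3 peaks, with the number of member H4K20me3 peaks above each bar. Chromosome 6 has 7 clusters and none holds H3K27me3, while all 3 on chromosome 8 do.

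Neighbouring clusters of at least 10 peaks, giant ones included, were counted for each mid-size cluster. Of the 62, 9 had another cluster of at least 10 peaks within 100 kb, 26 within 500 kb and 27 within 1 Mb. Widening the distance to 5 Mb raised the count only to 36. The 27 formed 11 groups, 2 of which also took in a giant cluster. The largest was a row of 5 clusters, the fewest with 14 peaks, along 2.35 Mb of chromosome 14 (57831685 to 60186201), 184 peaks in all. On chromosome 17, 3 clusters of 25 to 32 peaks lay within 1.34 Mb (40058766 to 41397672), all with median control pileups of 7.78 to 8.37. On chromosome 1, 3 clusters lay within 1.27 Mb (136544572 to 137811699). On chromosome 3, 3 mid-size clusters of 11 to 56 peaks preceded the giant cluster of 431, and on chromosome 20 a cluster of 15 peaks preceded the giant cluster of 428. Since the joining distance decides whether neighbours count as 1 cluster or several, these groups describe the arrangement at 50 kb only.

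A minority of mid-size clusters lay near chromosome ends, and these were concentrated at the very ends. Of the 62 clusters, 9 (14.5%, exact 95% interval 6.86 to 25.8) lay within 5 Mb of an end of the span, against 7.71% of the span itself. Within 2 Mb there were 8 (12.9%, 5.74 to 23.9) against 3.08% of the span. Lone peaks, meaning those with no neighbour within 50 kb, had 2.48% within 2 Mb, and small clusters had 2.84%. The interval for mid-size clusters within 2 Mb lies above the share of the span, and that within 5 Mb does not. The clusters treated here as independent include 2 neighbouring pairs, 1 near the end of chromosome 6 and 1 near the start of chromosome 9, so these intervals are too narrow. The cluster of 77 peaks on chromosome 11 closes the span of that chromosome, which is set by its own last peak. A cluster of 14 peaks on chromosome 8 began at position 2, the start of the chromosome in this build.

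The folds of members lay between those of giant clusters and those of small clusters and lone peaks. Over all peaks the median fold was 3.71 in mid-size clusters (95% interval 3.65 to 3.77), 4.14 in giant clusters (4.04 to 4.20), 3.58 in small clusters (3.55 to 3.61) and 3.61 at lone peaks (3.57 to 3.63). Among peaks with ordinary control, which makes the groups more alike, the medians were 3.98 (3.92 to 3.998, n = 1395), 4.22 (4.21 to 4.22, n = 2146), 3.66 (3.63 to 3.71, n = 1140) and 3.64 (3.61 to 3.71, n = 1251). Median widths at ordinary control followed the same order, with 289 bp in mid-size clusters, 350.5 bp in giant clusters, 246 bp in small clusters and 241 bp at lone peaks. The intervals for mid-size clusters did not overlap those of the other 3 groups in either measure. They cover counting error only and treat neighbouring peaks as independent. Fold was not used by the rule, but a caller lists more peaks where enrichment is higher, so number of peaks and fold are not separate measures of a region.

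Among the clusters themselves, denser ones had somewhat higher folds and wider peaks. Over the 42 clusters with ordinary median control, which share 1 library, Spearman's rho with density was 0.42 for median fold and 0.61 for median width. The 21 denser of these clusters had a median fold of 3.86 (range 3.18 to 4.66), and the 21 looser had 3.71 (3.35 to 4.22), so the ranges overlapped almost fully. Their highest folds differed more, with a median of 6.06 (4.89 to 7.55) in the denser and 5.21 (4.26 to 5.77) in the looser. The denser clusters also held more peaks, 38 against 14 at the median, and a maximum is higher where more peaks are drawn. The clusters with the highest median folds were compact ones: 4.66 for 11 peaks on chromosome 6 (47521701 to 47576060), 4.53 for 23 peaks on chromosome 2 (119443737 to 119511748) and 4.44 for the densest cluster, on chromosome 2. None of these 3 held a peak deep in control or an H3K27me3 peak.

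Deep control coverage was more frequent in mid-size clusters than in the other H4K20me3 peaks of these chromosomes. Of the 1905 members, 510 (26.8%, exact 95% interval 24.8 to 28.8) were deep in control, against 16.3% of all H4K20me3 peaks on the same autosomes, 12.5% in giant clusters, 16.2% in small clusters and 8.75% of lone peaks. Without chromosome 9 the share was 23.2%. With a limit of 3 times the lowest control pileup in place of 2 it was 15.6%, against 4.32% in giant clusters, 12.3% in small clusters and 6.64% of lone peaks. By cluster the shares were uneven. In 31 of the 62 clusters fewer than 10% of the peaks were deep, in 9 more than 90% were, and in 22 the share lay between. No peak was deep in 20 clusters, and every peak was deep in 4. The median control pileup was deep in 20 of the 62 clusters (32.3%, 20.9 to 45.3), against 10.4% of all clusters and lone peaks on these autosomes.

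Clusters with deep and ordinary median control differed in fold and hardly in shape. The 20 deep clusters, which held 486 peaks on 10 chromosomes, had a median of 2.98 over their median folds (range 1.99 to 4.23). The 42 ordinary ones had 3.77 (3.18 to 4.66). Median length was 148 kb against 130 kb and median density 16.1 against 19.7 per 100 kb, with intervals that overlapped widely in both. Over all 62 clusters the rho between median control pileup and median fold was -0.82. Control enters the fold as its divisor, and peaks with deep control are listed at lower folds (lowest 1.38, against 2.44 at ordinary control), so a negative relation is built into these values. The highest median control pileup was 105, in a cluster of 22 peaks (chr9:684297-767369). Next came 68.8 in the cluster of 14 peaks at the start of chromosome 8 (chr8:2-92333) and 48.8 in the cluster of 58 peaks on chromosome 9. A second cluster of 14 peaks on chromosome 8 (chr8:6695500-6836389) had 27.7, and one of 33 peaks (chr10:58190490-58391663) had 25.5. The first 3 of these 5 also had the 3 lowest median folds, 1.99, 2.08 and 2.20.

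**Figure D4:**
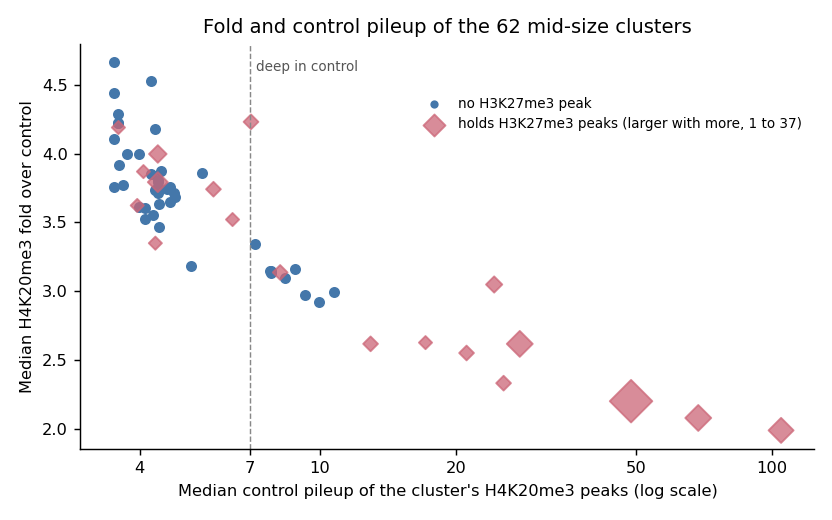
Median H4K20me3 fold of each mid-size cluster against the median control pileup of its peaks (log scale), with the limit for deep control dashed; diamonds mark clusters holding H3K27me3 peaks and grow with their number. The clusters with the highest control pileups, 48.8 to 105, have folds near 2 and diamonds among the largest.

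H3K27me3 broad peaks were present in 19 of the 62 clusters (30.6%, exact 95% interval 19.6 to 43.7), against 6.17% of all H4K20me3 clusters and lone peaks on these autosomes. A cluster counts as holding a peak where they share at least 1 bp. Among small clusters 34 of 457 (7.44%, 5.21 to 10.2) held one, among lone peaks 60 of 1371 (4.38%, 3.36 to 5.60) and among giant clusters 4 of 5 (28.4 to 99.5). A longer cluster offers more room, and median lengths rose from 0.243 kb for lone peaks through 24.5 kb and 137.8 kb to 1017 kb, so the shares are not comparable as rates. Of the 62 clusters, 3 lay on chromosomes 16, 18 and 20, which have no peak in the H3K27me3 list and could not hold any. On the remaining chromosomes the share was 19 of 59 (32.2%, 20.6 to 45.6). Counting only H3K27me3 peaks with ordinary control in their own list, the share of the 62 was 6.45%, and among clusters built only from peaks with a -log10 q of at least 5 it was 46.4% of 28. Matching shares over all clusters and lone peaks were not computed, so the 6.17% is no background for either value. Within mid-size clusters, the number of H3K27me3 peaks showed little relation to length (rho 0.05, n = 62) or to number of H4K20me3 peaks (0.12), and a stronger one to the median control pileup (0.47).

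In total the clusters held 103 of the 616 H3K27me3 peaks on these autosomes (16.7%, 13.9 to 19.9) in 0.392% of the span. This amounts to 10.7 peaks per Mb inside the clusters, against 0.2498 per Mb over the whole autosomal span. Other H4K20me3 clusters held H3K27me3 peaks too: 66 in 14.4 Mb of small clusters and 30 in 5.23 Mb of giant clusters. A few mid-size clusters carried most of the 103. The cluster of 58 H4K20me3 peaks on chromosome 9 held 37, both clusters on chromosome 8 named above for deep control held 12, and the cluster of 22 on chromosome 9 held 11. These 4 together held 72 of the 103 (69.9%), and the remaining 58 clusters held 31, or 3.41 per Mb. Without chromosomes 8 and 9 the value was 3.46 per Mb. The cluster of 54 H4K20me3 peaks on chromosome 7 held 6, the cluster at the centre of the chromosome 14 group held 4, and one of 13 H4K20me3 peaks (chr13:79927483-79987766) held 3. A further 6 clusters held 2 each and 6 held 1 each. On chromosome 6, none of the 7 clusters held an H3K27me3 peak although the chromosome had 55, and the same was true of the 4 clusters on chromosome 2. Chromosomes 4, 5 and 11 had 2 clusters each, also without H3K27me3, although they had 58, 29 and 48 such peaks. With so few clusters on a chromosome, these absences are a description only.

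Clusters that held H3K27me3 had higher control coverage and lower folds at the median, with intervals that overlapped at their ends. Their median control pileup was 8.18 (95% interval 4.39 to 25.5, n = 19), against 4.39 (4.23 to 4.67, n = 43) in those without. Their median fold was 3.14 (2.55 to 3.79), against 3.74 (3.61 to 3.81). In length they were alike within error, with medians of 141 kb (76.5 to 238) and 126 kb (84.9 to 172), and likewise in density, with 21.6 (14.4 to 31.2) and 16.9 (13.4 to 27.5) per 100 kb. Median peak widths were 316 bp (270.5 to 350.0) and 277 bp (262 to 290), with intervals that overlapped.

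Of the clusters with deep median control, 11 of 20 held H3K27me3 (55.0%, 31.5 to 76.9), and of those with ordinary median control 8 of 42 did (19.05%, 8.60 to 34.1). At deep control the share was 28 of 58 (48.3%, 34.95 to 61.8) in small clusters and 60 of 120 (50%, 40.7 to 59.3) at lone peaks, both within the interval of the mid-size clusters, which is wide. At ordinary control it was 6 of 399 (1.504%) in small clusters and 0 of 1251 at lone peaks, which allows a share of up to 0.240%. At ordinary median control the interval for mid-size clusters lay above that for small clusters (0.554 to 3.24), and clusters of many peaks can contain both kinds of peak. Among mid-size clusters with a median control of over 3 times the lowest (above 10.5), 9 of 10 held H3K27me3 (90%, 55.5 to 99.7), and of those at 2 to 3 times the lowest 2 of 10 did (20%, 2.52 to 55.6). In small clusters the same shares were 27 of 42 (64.3%, 48.0 to 78.4) and 1 of 16 (6.25%, 0.158 to 30.2), and at lone peaks 60 of 91 (65.9%, 55.3 to 75.5) and 0 of 29. In both bands the mid-size share was the highest of the 3, with intervals that overlapped those of the small clusters and lone peaks. Length differed here too. At deep control the median lengths were 148 kb in mid-size clusters, 9.32 kb in small clusters and 0.461 kb at lone peaks. At ordinary control they were 130, 28.7 and 0.241 kb, so these shares are not comparable as rates.

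**Figure D5:**
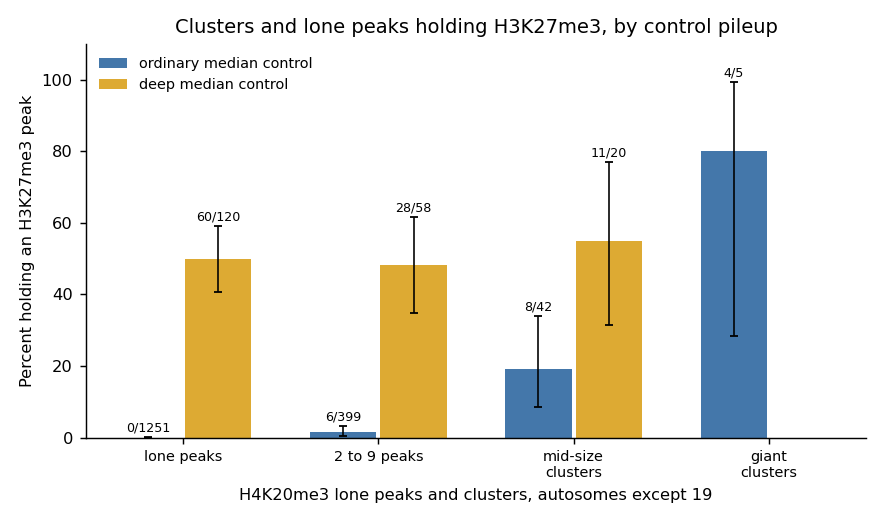
Percent of H4K20me3 lone peaks and clusters that hold an H3K27me3 peak, by number of H4K20me3 peaks and by median control pileup, with exact 95% intervals and counts above the bars; no giant cluster has deep median control. Gold bars (deep) stand between 48.3% and 55.0% in the 3 sizes that have them, while blue bars (ordinary) rise from 0 at lone peaks to 19.05% in mid-size clusters and 80% in giant ones.

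Within the clusters, the members that overlapped H3K27me3 were all deep in control, as were the overlapping H4K20me3 peaks elsewhere on these autosomes. Of the 510 deep members, 102 (20%, 16.6 to 23.7) overlapped an H3K27me3 peak, against 24.9% of all deep H4K20me3 peaks on these autosomes, so the members did not stand above that background. Of the 1395 ordinary members 0 did, which allows a share of up to 0.215%, and over all 5932 ordinary peaks the count was also 0. Together this is 5.35% of the members, against 4.06% of all H4K20me3 peaks on these autosomes. The same held in the 8 clusters with ordinary median control that contained H3K27me3. All 20 overlapping members there were deep in control, and 16 of the 17 H3K27me3 peaks in them were deep as well (above 10.4 in that list). In 16 of the 19 clusters holding H3K27me3 at least 1 member peak overlapped it. In all 16 the overlapping members had a higher median control pileup than the other members of their own cluster, and in 14 of the 16 a lower median fold. Several of the 16 had only 1 overlapping member. Control also divides the fold, so the 2 counts are not separate. The exceptions in fold were the cluster of 13 peaks on chromosome 13 (3.62 against 2.84) and the cluster of 22 on chromosome 9 (2.02 against 1.88). Pooled over the 19 clusters, the fold was 2.15 at the median (2.05 to 2.30) for the 102 overlapping members. For the 590 others it was 3.70 (3.59 to 3.78). Widths at the median were 474 and 300 bp, and a wider peak more easily shares 1 bp. Of the 102, the chromosome 9 clusters of 58 and 22 peaks supplied 33 and 19. Both chromosome 8 clusters with deep median control supplied 10 and 6. Within these clusters, in this order, median folds were 1.95 against 3.16, 2.02 against 1.88, 2.08 against 2.09 and 2.39 against 2.76. The pooled folds thus mix differences within and between clusters. Whether deep control coverage has a part in the shared calls was not tested. The lowest H3K27me3 fold listed at ordinary control of its own list was 2.42. The H3K27me3 control at members without an H3K27me3 peak was not analysed here.

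The H3K27me3 peaks inside mid-size clusters differed from the rest of that list in the same measures. Their median fold was 1.86 (1.78 to 1.92, n = 103), against 2.78 (2.73 to 2.83, n = 513) on these autosomes outside the clusters. Their median control pileup was 41.4, against 6.85, and 98 of the 103 (95.1%, 89.0 to 98.4) were deep in control, against 215 of 513 (41.9%, 37.6 to 46.3). Their median width was 759 bp (600.0 to 850.0) against 586 bp (529 to 649). The 4 clusters holding most supplied 72 of the 103, and the intervals treat peaks as independent, so they are too narrow. Fold and width were not compared among deep peaks alone, so these differences are not separate from the difference in control. A member peak was overlapped by 66 of the 103 (64.1%, 54.0 to 73.3). Of all autosomal H3K27me3 peaks, these 66 included, 34.1% overlapped an H4K20me3 peak, but a peak inside a cluster lies among many H4K20me3 peaks by the choice of clusters, and nothing is read from the difference. The remaining 37 lay between H4K20me3 peaks.

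Only 5 of the 103 H3K27me3 peaks had ordinary control. These 5, chosen after their values were seen, lay in 4 clusters. The peak on chromosome 1 (133357716 to 133358033), with a fold of 2.82, stood alone in a loose cluster of 37 H4K20me3 peaks and overlapped none of them. On chromosome 13 a peak with a fold of 3.21 (104994392 to 104994746) overlapped a member of a cluster of 20. On chromosome 8 (6695500 to 6836389) the folds were 3.26 and 3.05, and 1 of the pair overlapped a member. The last, with a fold of 2.66, lay at the end of the cluster of 58 peaks on chromosome 9. The members that 3 of these 5 overlapped were deep in the H4K20me3 control, as were all overlapping members.

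H3K27me3 peaks were crowded within parts of the clusters that held several. On chromosome 9, 33 of the 37 lay in the first 160 kb, the stretch with a median H4K20me3 control pileup of 64.2, and 4 lay beyond. Their median folds were 1.80 and 2.16. On chromosome 14 all 4 lay in the last stretch of the cluster, from 380 kb onward, where the control pileups of H4K20me3 peaks reached 86.9. By position, 62 of the 103 H3K27me3 peaks lay in 4 of the 9 clusters within 5 Mb of an end. Of the other 53 clusters, 15 held H3K27me3. Of the 9 clusters near ends, 4 had deep median control. All 4 held H3K27me3, and the 5 with ordinary median control held none. Away from the ends, 7 of 16 clusters with deep median control and 8 of 37 with ordinary held it. With 4 and 5 clusters near ends, these counts are a description only.

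Clusters of at least 10 and fewer than 300 peaks were also present on chromosome 19, outside the rule, and served as a comparison of the same size. There were 21 with 1337 peaks, a median length of 188 kb, a median density of 23.4 peaks per 100 kb and a median of 50 peaks. Their peaks had a median fold of 3.94, and 11.6% were deep in control, against 3.71 and 26.8% in the mid-size clusters of the other autosomes. A deep median control was found in 1 of the 21, against 20 of the 62. The H3K27me3 list used here has no peak on chromosome 19, so none of the clusters there could hold any.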

How the data were processed

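ChIP-seq of each mark gave 1 library from captured subventricular zone progenitors. Total H3 and total H4 libraries were not analysed here. The submitters' processing notes name MACS2 (2.1.0.20140616) and Bowtie (1.1.1); parameters, the control behind each list and pooling of runs are not given in the sources used here. The build is papAnu2, per the file names. The deposited H4K20me3 list has the narrow layout and the H3K27me3 list the broad layout. The authors' deposited fold over control is a ratio (at the summit in the narrow list, a mean over the region in the broad one). The deposited lists also give -log10 p and -log10 q by the caller (largest q 0.0482 for H4K20me3 and 0.0963 for H3K27me3). The deposited score repeats the -log10 q and was not used. The lists give no read depth, and the labels' protocols state only a general minimum for all libraries.

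Coordinates are printed from 1. Control pileups were solved from 2 deposited values: the p as a Poisson upper tail, and the fold as a quotient with 1 added to both pileups. All 10000 ChIP pileups recovered for H4K20me3 were whole within 0.02, against 5.78% for H3K27me3, whose control pileups are approximate. Lowest values were 3.50 and 5.20, and deep means over 2 times these. Shares carry exact (Clopper-Pearson) 95% intervals, medians the distribution-free binomial interval, and a count of 0 allows 3 counts; these intervals cover counting error alone and treat adjacent peaks as independent. Clusters named are those with most peaks (10), highest density (5), greatest length (3), highest and lowest median fold (3 each), highest control (5), at least 3 H3K27me3 peaks, or nearest a span end, with those next to the limits of the rule; others were named after their values were seen. The rule for the clusters and all lists and tests were chosen with earlier results of these data known. Scripts were tested on simulated data. Python 3.11.15, numpy 2.4.6, scipy 1.17.1, pandas 2.3.3 and matplotlib 3.10.9 were used.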

Additional observations from a re-analysis of the deposited data

How the results depend on the processing

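Of 32 alternative values, 15 stayed within 1.5 times (counts and peaks per Mb) or within the 95% interval (shares and medians). The other 17 moved beyond these limits, and a change of direction was not assessed. Of the 32, 6 were chosen after seeing the data. They are those by control coverage, other than the H3K27me3 one and the cluster limit. The rest leave out chromosomes 8 and 9 together, or chromosome 9 for members deep in control. Joining at 25 or 100 kb left the number of clusters and the percent holding H3K27me3 within these limits, but moved the median length to 67.2 and 212 kb and the density to 31.4 and 12.7 peaks per 100 kb. At least 20 peaks left 29 clusters, with a median length of 201 kb and a median fold of 3.78. A -log10 q of at least 5 left 28 clusters, with a median fold of 4.44, of which 46.4% held H3K27me3. That percent was 6.45% with H3K27me3 peaks of ordinary control only and 19.05% over clusters of ordinary median control. Without chromosomes 8 and 9 the H3K27me3 peaks per Mb fell to 3.46. Members with ordinary control had a median fold of 3.98. With a limit of 3 times the lowest control, 16.1% of clusters and 15.6% of members were deep, and without chromosome 9, 23.2% of members. Beyond construction (fewer peaks or clusters, another joining distance), the cause of these moves was not tested. No paired analysis was possible because each mark has 1 library.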
